A study of Mus musculus with 21 samples.

Results

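The 10 genes described here encode JmjC histone demethylases of the Kdm2, Kdm3, Kdm4, Kdm5 and Kdm7 subfamilies: *Kdm2a*, *Kdm2b*, *Kdm3a*, *Kdm3b*, *Kdm4a*, *Kdm4b*, *Kdm4c*, *Kdm5a*, *Kdm5b* and *Kdm7a*. They were chosen by name and subfamily, not by their values, as relatives of *Kdm6b* that GSKJ4 might reach or that might compensate for it. All 10 were found by their Ensembl identifiers among the 55400 genes of the count table, and all 10 passed the filter on low counts in each comparison.

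C57BL/6 mouse embryonic stem cells, grown on Mitomycin-C-treated mouse embryonic fibroblasts, were turned into motor neurons through embryoid bodies, and RNA-seq was made at the stages D4, D4H8, D5 and D6. From day 2 the cultures received 1 μM all-trans retinoic acid and 0.5 μM SAG, a Sonic Hedgehog agonist, and 5 μM DAPT, a γ-secretase inhibitor that blocks Notch signalling, entered the medium at day 4. At day 5 they passed to the basal ADFNK medium with DAPT, which by its stated recipe holds neither retinoic acid nor SAG, so the D6 groups spent their last day without both. The untreated groups were D4, D4H8 (day 4 plus 8 hours), D5 and D6, and the treated groups D4H8_GSKJ4, D5_GSKJ4 and D6_GSKJ4, each with 3 biological replicates, 21 libraries in all. GSKJ4, a cell-permeable inhibitor of the H3K27 demethylases Kdm6a and Kdm6b, was given from the day before harvest, so the D4H8_GSKJ4 cultures met it before the addition of DAPT. Its dose in these cultures and the vehicle of the untreated ones are not given in the sources used here. All groups share the same stem cell background, and in bulk RNA fewer cells of a type and less RNA per cell cannot be told apart.

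JmjC demethylases remove methyl groups from histone lysines with iron, oxygen and 2-oxoglutarate, and the subfamilies differ in the lysine they act on. Kdm2a and Kdm2b act on H3K36, Kdm3a and Kdm3b on H3K9, Kdm4a, Kdm4b and Kdm4c on H3K9 and H3K36, Kdm5a and Kdm5b on H3K4, and Kdm7a on H3K9 and H3K27. Because they need oxygen and 2-oxoglutarate, compounds that occupy the 2-oxoglutarate pocket can reach several of them. GSKJ4 acts on enzyme activity, which mRNA levels do not measure, so the values below describe transcripts of possible off-target enzymes and not their inhibition.

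Total counts ran from 14982115 to 34383842 per library (median 16238435). Several libraries stood apart from others of their group. In FPKM, which is scaled to the library total, D4 replicate 1 was the lowest of its group for all 10 genes. After TMM scaling between libraries it was not the lowest for *Kdm4a* and *Kdm5a*. Of its counts 4.08% came from mitochondrial genes, against 2.08% and 1.74% in the other D4 libraries. D4H8_GSKJ4 replicate 2 had 5.33% of mitochondrial counts against 2.00% and 2.27%. D5 replicate 1, the highest of its group in FPKM for 8 of the 10 genes, had 0.335% against 2.14% and 1.73%. In D5_GSKJ4 replicate 2, 39381 genes were at 0 counts, against 31023 and 31326. Fits without one of these libraries are given for some of the results below, not for all.

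**Figure D1:**
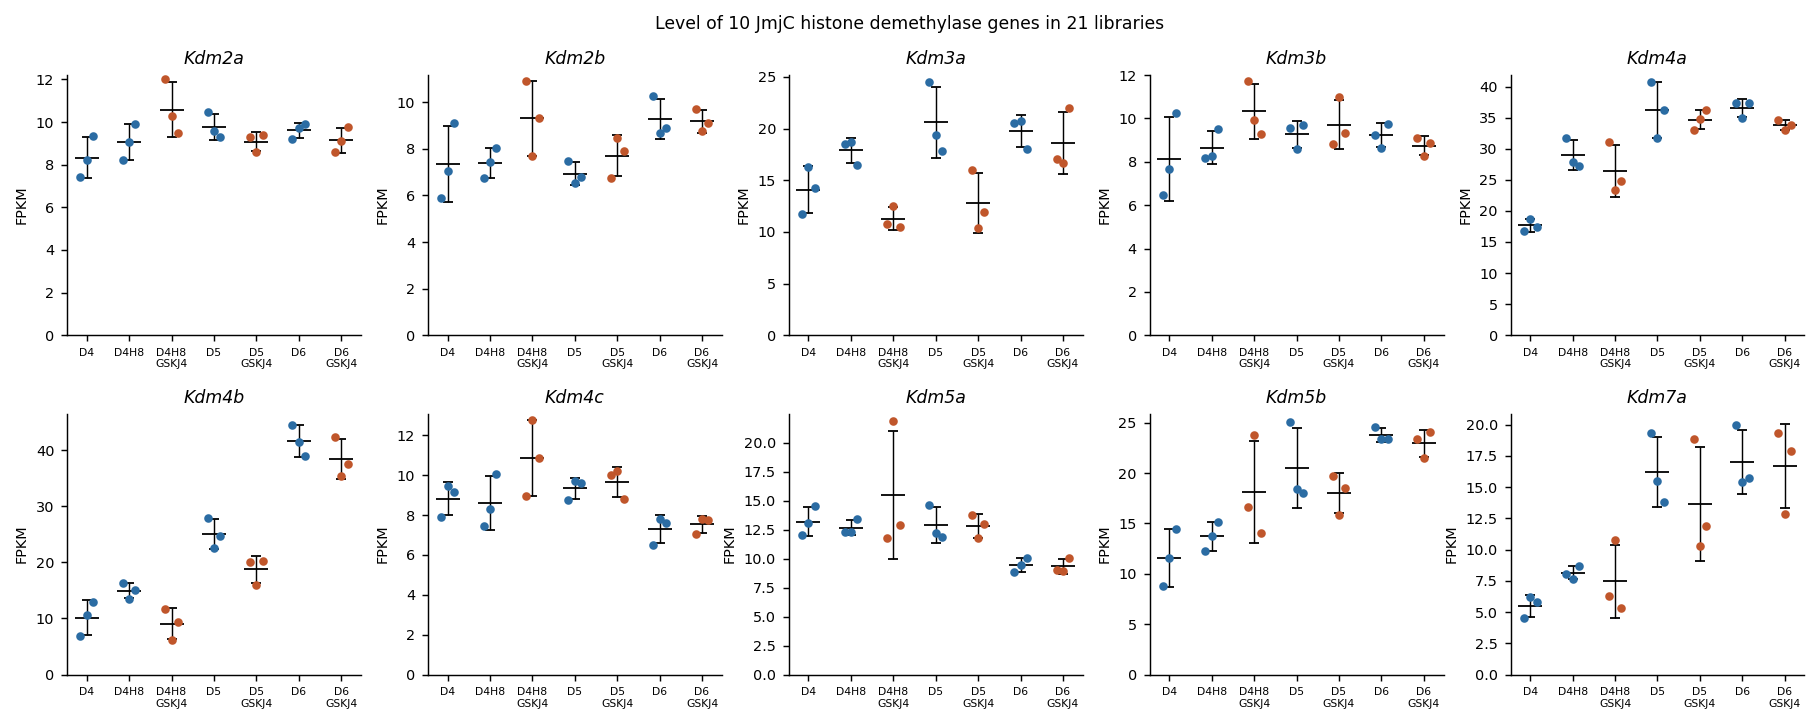
FPKM (fragments scaled to gene length and library size, as deposited; vertical axes start at 0) of each of the 10 genes in 21 libraries by group. Points are libraries in replicate order (blue untreated, orange GSKJ4), horizontal marks and bars the mean ± SD of 3 libraries. *Kdm4b* rises from a D4 mean of 10.2 to a D6 mean of 41.6, while *Kdm2a* and *Kdm3b* stay near 8 to 10 FPKM in the untreated groups.

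All 10 genes were expressed at every stage, with group means from 5.50 to 41.6 FPKM, a per-length scale on which genes can be compared. At D4 *Kdm4a* had the highest level, 17.7 ± 0.997 FPKM (SD, n = 3), and its lowest library stood above every *Kdm3a* library, the next gene in order. *Kdm7a* had the lowest level at D4, 5.50 ± 0.864 FPKM. All other neighbours in the D4 order overlapped in their libraries. By D6 the order had become *Kdm4b*, *Kdm4a*, *Kdm5b*, *Kdm3a* and *Kdm7a*, followed by *Kdm2a*, *Kdm5a*, *Kdm2b* and *Kdm3b*, with *Kdm4c* last at 7.31 ± 0.698 FPKM. At D6 the first 3 genes were each separated from the next, *Kdm3a* overlapped with *Kdm7a*, and the group from *Kdm2a* to *Kdm3b* could not be ordered within its spread. The levels of the 10 genes summed to between 88.5 and 117 FPKM at D4 and between 179.7 and 191 FPKM at D6.

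The first question was how these enzymes' transcripts move as the cultures differentiate. In untreated cultures 7 of the 10 genes were higher and 1 was lower at D6 than at D4, by the quasi-likelihood test of edgeR with p-values adjusted (Benjamini-Hochberg, threshold 0.05) over all 17519 genes tested. Of all genes tested 32.9% were higher and 31% lower in the same comparison, 63.9% together. The median log2 fold change was 0.49 over the 10 genes and -0.039 over all genes. In CPM (counts scaled to the library total), 5 of the 10 genes had every D6 library above every D4 library, against 33.5% of all genes, and 2 had every D6 library below, against 35.8%. D6 cultures also differ from D4 in their exposure to DAPT and in the withdrawal of retinoic acid and SAG, which cannot be told apart from stage.

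The Kdm4 subfamily, which acts on trimethylated H3K9 and H3K36, held the gene with the widest range. *Kdm4b* (ENSMUSG00000024201, GRCm38 chromosome 17: 56326062-56402870, plus strand) measured 6.92, 10.5 and 13.01 FPKM in the D4 libraries and 16.3, 13.5 and 15.1 at D4H8. It measured 27.9, 22.5 and 24.7 FPKM at D5 and 44.5, 41.5 and 38.9 at D6. No library of a later untreated stage fell to the level of an earlier stage. Between neighbouring stages, such a rise without overlap in CPM was seen for 4 of the 10 genes at D4H8 over D4 (15.9% of all genes), 4 at D5 over D4H8 (24.2%) and 2 at D6 over D5 (21.6%), *Kdm4b* among them each time, and a fall for 0 (8.67%), 0 (19%) and 2 (26.9%). Between D4 and D6 its log2 level rose by 2.12 ± 0.17 (SE, edgeR adjusted p 1.51e-07), and 13 of 13 alternatives kept the call, with log2 values from 1.91 to 2.25. It rose from D4H8 to D5 by 0.75 ± 0.17 (adjusted p 0.00440) and from D5 to D6 by 0.85 ± 0.17 (adjusted p 0.00163). From D4 to D4H8 the log2 difference of 0.53 ± 0.17 had an adjusted p of 0.109.

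*Kdm4a* (ENSMUSG00000033326, chromosome 4: 118136957-118180043, minus strand) had a different time course. It measured 16.8, 18.8 and 17.4 FPKM at D4 and 31.7, 27.8 and 27.3 at D4H8. At D5 it measured 40.7, 31.8 and 36.2 FPKM and at D6 37.3, 34.9 and 37.4. Its step from D4 to D4H8 was the only change among the 10 genes that passed in that comparison, in which 4.06% of all genes were higher and 0.32% lower. The log2 fold change was 0.66 ± 0.13 (edgeR adjusted p 0.00802), and without D4H8 replicate 1 the adjusted p was 0.0570. From D4H8 to D5 *Kdm4a* had a log2 difference of 0.33 ± 0.13 (adjusted p 0.0713), or 0.036 with the replicate number as a block, and from D5 to D6 it was 0.13 ± 0.13 (adjusted p 0.481). Over the whole course it rose by 1.11 ± 0.13 on the log2 scale (adjusted p 4.35e-06).

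*Kdm4c*, the remaining Kdm4 gene with a measurable level, did not pass in any stage comparison. Its D6 libraries at 6.51, 7.81 and 7.60 FPKM all lay below the D4 libraries at 7.91, 9.44 and 9.15 FPKM, a separation seen for 35.8% of all genes in that direction. The log2 difference was -0.21 ± 0.12 (edgeR adjusted p 0.136). Under upper-quartile scaling it was -0.36 (adjusted p 0.0204), but that scaling also shifts the median of all genes in this comparison to -0.19, from -0.039. Of the FPKM summed over the 3 Kdm4 genes, *Kdm4b* took 27.3% ± 5.52 (SD, n = 3) at D4 and 48.7% ± 2.08 at D6. The share of *Kdm4c* was 24.2% ± 0.944 and 8.57% ± 1.05, and that of *Kdm4a* was 48.5% ± 4.59 and 42.8% ± 1.62. The D4 and D6 libraries did not overlap in the shares of *Kdm4b* and *Kdm4c*.

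*Kdm7a* (ENSMUSG00000042599, chromosome 6: 39136623-39206789, minus strand), a demethylase with a PHD finger that reads H3K4 trimethylation, had the next widest range. It measured 4.53, 6.18 and 5.80 FPKM at D4, 8.08, 7.68 and 8.71 at D4H8, 19.3, 15.5 and 13.8 at D5 and 20.0, 15.4 and 15.8 at D6. The libraries of D4, D4H8 and D5 form 3 steps without overlap, and those of D5 and D6 overlap. The step from D4H8 to D5 was a log2 fold change of 1.00 ± 0.16 (edgeR adjusted p 0.000391), that from D4 to D4H8 was 0.52 ± 0.16 (adjusted p 0.0963), and that from D5 to D6 was 0.19 ± 0.16 (adjusted p 0.390). D6 against D4 gave 1.71 ± 0.16 (adjusted p 7.09e-07), with 13 of 13 alternatives called.

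The H3K4 demethylases moved in opposite directions. *Kdm5b* (ENSMUSG00000042207, chromosome 1: 134560171-134635285, plus strand) measured 8.75, 11.6 and 14.5 FPKM at D4 and 24.6, 23.4 and 23.4 at D6. The D6 libraries all exceeded the D4 libraries, and the log2 fold change was 1.12 ± 0.16 (edgeR adjusted p 4.02e-05). *Kdm5a* (ENSMUSG00000030180, chromosome 6: 120364124-120444574, plus strand), its relative first named as a retinoblastoma-binding protein, measured 12.01, 13.04 and 14.6 FPKM at D4 and 8.88, 9.44 and 10.1 at D6. Again the groups did not overlap, and *Kdm5a* fell by 0.41 ± 0.11 on the log2 scale (adjusted p 0.00579, and 0.0595 in a single fit over all 21 libraries). The *Kdm5b* to *Kdm5a* ratio of FPKM, which no library scaling can change, was 0.869 ± 0.133 (SD, n = 3) at D4, 1.08 ± 0.0758 at D4H8, 1.58 ± 0.115 at D5 and 2.52 ± 0.227 at D6. *Kdm5a* shares 251 of its 14158 exonic bases with *Ccdc77* on the opposite strand (mean 4.74 FPKM), and since the counting strand was not stated its values are uncertain to that extent.

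The *Kdm5b* step from D4H8 to D5 was a log2 fold change of 0.59 ± 0.16 (edgeR adjusted p 0.0146). It rests on several libraries: the adjusted p was 0.0625 in a fit over all 21 libraries and between 0.0218 and 0.0732 when a library was left out, with 3 of 6 such fits no longer called, and without D5 replicate 1 the log2 value was 0.40. The fall of *Kdm5a* from D5 to D6, -0.34 ± 0.11 (adjusted p 0.0332), was kept in 7 of 13 alternatives. With *Kdm7a* and *Kdm4b*, *Kdm5b* made 3 of 10 genes that rose from D4H8 to D5, against 17.2% of all genes, and none fell, against 10.5%.

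The Kdm3 and Kdm2 genes, for demethylases of H3K9 and of H3K36, had log2 differences from 0.26 to 0.56 between D4 and D6. *Kdm3a* (ENSMUSG00000053470, chromosome 6: 71588972-71632990, minus strand), which encodes a demethylase of mono- and dimethylated H3K9, measured 11.7, 16.3 and 14.2 FPKM at D4 and 20.5, 20.8 and 18 at D6. The D6 libraries all lay above the D4 libraries, and the log2 fold change was 0.56 ± 0.15 (edgeR adjusted p 0.00419, called in 13 of 13 alternatives). *Kdm3b*, its paralogue, measured 6.47, 7.69 and 10.3 FPKM at D4 and 9.26, 8.66 and 9.76 at D6, with overlapping groups and a log2 difference of 0.26 ± 0.13 (adjusted p 0.0937).

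*Kdm2b* (ENSMUSG00000029475, chromosome 5: 122870665-122989823, minus strand), whose product brings the PRC1.1 complex to CpG islands, measured 7.50, 6.54 and 6.79 FPKM at D5 and 10.3, 8.70 and 8.91 at D6. It rose by 0.54 ± 0.14 on the log2 scale from D5 to D6 (edgeR adjusted p 0.00846, and 0.0532 without D5 replicate 2). In that comparison *Kdm2b* and *Kdm4b* were 2 of 10 genes higher and *Kdm5a* 1 of 10 lower, against 19.2% and 15.1% of all genes. D6 against D4 gave 0.42 ± 0.14 for *Kdm2b* (adjusted p 0.0160), kept in 9 of 13 alternatives and with an adjusted p of 0.114 without D4 replicate 1. *Kdm2a* gave 0.28 ± 0.10 (adjusted p 0.0313), kept in only 4 of 13 alternatives, and no fit that left out a library called it. *Kdm2b* shares 627 of its 10869 exonic bases with *Rnf34* on the opposite strand (mean 13.9 FPKM), so its counts are uncertain in the same way as those of *Kdm5a*.

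**Figure D2:**
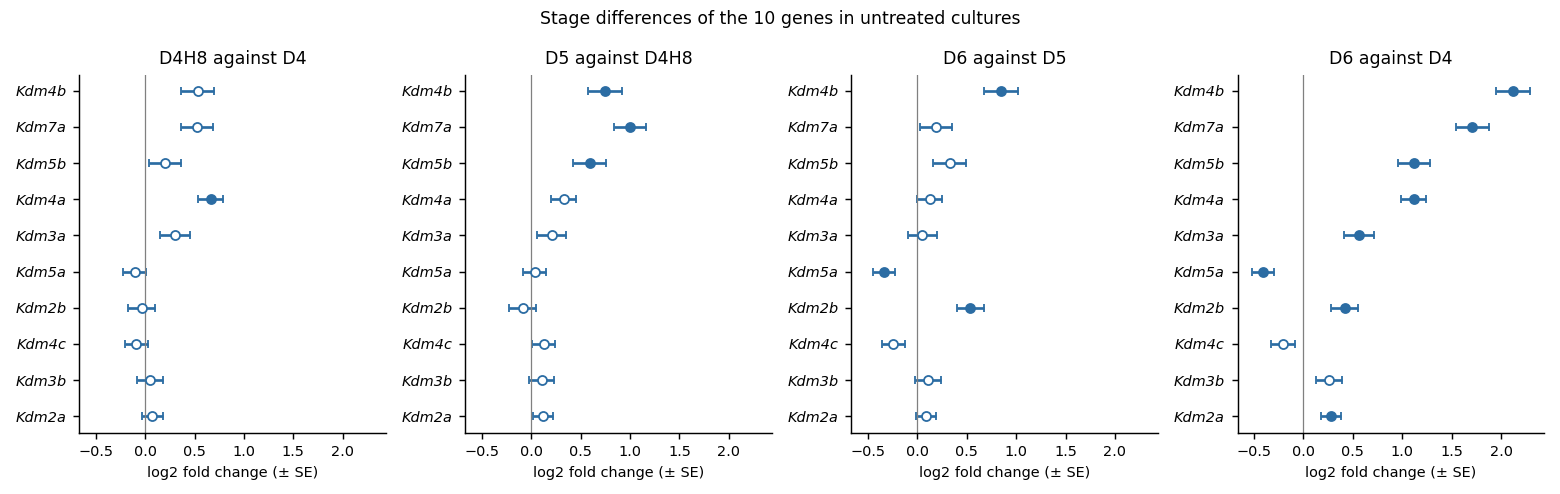
Log2 fold change (horizontal axis, bars ± SE) of the 10 genes in 4 comparisons of untreated stages, genes in order of their range over the 7 groups. Filled points have an edgeR adjusted p under 0.05: 1 gene for D4H8 against D4, 3 for D5 against D4H8, 3 for D6 against D5 and 8 for D6 against D4.

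Markers of the cell types in the cultures changed across the same stages. From D4 to D6, 8 of 8 motor neuron markers rose in edgeR, where 32.9% of all genes were higher and 31% lower. Their summed level went from between 36.8 and 76.2 FPKM to between 1970.2 and 2252 FPKM. Of 8 cycling progenitor markers 7 fell and 1, *Nkx6-1*, rose. Their sum went from between 453 and 529 FPKM to between 185 and 229 FPKM. *Nkx6-1* made up most of the D6 sum, at 190, 105 and 135 FPKM against 21.4, 25.7 and 34.6 at D4. Of 8 pluripotency markers 1 fell, and the sum ran from 125 to 298 FPKM at D4 and from 14.1 to 110.3 FPKM at D6. The lowest sum of each untreated stage was that of replicate 1, where *Nanog* at D6 measured 1.99 FPKM against 12.9 and 12.6. Of 8 fibroblast markers 2 rose, with sums from 5.50 to 19.8 FPKM at D4 and from 12.7 to 28.9 FPKM at D6. No marker was at 0 in all libraries of a group. The part of these shifts in the changes of the 10 genes was not tested.

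Among 13 further JmjC demethylase genes, 12 were tested for D6 against D4 and 4 rose and 4 fell, against 32.9% and 31% of all genes. *Kdm6b*, the enzyme the study is about, rose by 1.28 ± 0.16 (edgeR adjusted p 7.19e-06). *Phf2*, which encodes an H3K9 demethylase of the Kdm7 group, rose by 1.08 ± 0.13 (adjusted p 6.38e-06), and its relative *Phf8* by 0.72 ± 0.16 (adjusted p 0.00134). *Riox2*, a JmjC oxygenase of the nucleolus, fell by 1.97 ± 0.29 (adjusted p 4.54e-05). *Kdm6a* at -0.13 ± 0.12 (adjusted p 0.339) and *Kdm5c*, another expressed H3K4 demethylase gene, at 0.13 ± 0.12 (adjusted p 0.364) did not pass. Among 8 JmjC proteins that are not established histone demethylases, 3 rose and 2 fell.

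The second question was whether GSKJ4 moved the transcripts of these enzymes. At D4H8, 0 of 10 passed in edgeR, against 2.11% of all 16269 genes higher and 1.85% lower. At an unadjusted p under 0.05 there were 2 of 10, against 25.1% of all genes, and DESeq2 called the same 2 as lower, *Kdm3a* and *Kdm4b*, against 5.42% of all genes lower. In edgeR the same 2 passed as lower without a filter on low counts (3.39% of all genes lower), with a replicate block (6.39%) and in a fit over all 21 libraries (5.4%). The median log2 difference was 0.21 over the 10 genes and 0.022 over all genes. For the 8 other genes edgeR's adjusted p ran from 0.313 to 0.805.

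*Kdm3a* measured 18.5, 18.7 and 16.5 FPKM in the untreated D4H8 libraries and 10.8, 12.5 and 10.5 FPKM in the treated ones. Every treated library lay below every untreated library, which in CPM held for 14.3% of all genes in that direction. The log2 difference was -0.69 ± 0.18, with an edgeR p of 0.00410 and an adjusted p of 0.0656. The adjusted p was 0.0233 in DESeq2, 0.0199 without a filter on low counts and 0.0226 in a single fit over all 21 libraries. Only 5 of 13 alternatives called *Kdm3a*, with adjusted p up to 0.261, and only 1 of the 6 fits that left out a library did. Without D4H8_GSKJ4 replicate 2, the library with the high mitochondrial share, the log2 difference was -0.85 (adjusted p 0.0165).

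*Kdm4b* measured 16.3, 13.5 and 15.1 FPKM in the untreated D4H8 libraries and 11.7, 6.20 and 9.33 FPKM in the treated ones, again without overlap. The lowest value was that of D4H8_GSKJ4 replicate 2. The log2 difference was -0.77 ± 0.22, with an edgeR p of 0.00595 and an adjusted p of 0.0740. The adjusted p was 0.0276 in DESeq2, 0.0138 without a filter and 0.0181 over all 21 libraries. Only 5 of 13 alternatives called *Kdm4b*, with adjusted p up to 0.282, and only 1 of the 6 fits that left out a library did. Without D4H8_GSKJ4 replicate 2 the log2 difference was -0.60 (adjusted p 0.0549), and without D4H8_GSKJ4 replicate 1 it was -0.98 (adjusted p 0.0488). The untreated rise of *Kdm4b* after D4H8 is described above, and its treated D4H8 libraries lay within or below the range of the D4 libraries, 6.92 to 13.01 FPKM.

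D4H8_GSKJ4 replicate 2 set the values of the H3K4 genes and of *Kdm7a* in that group. *Kdm5a* measured 21.8 FPKM there against 11.8 and 12.9 in the other treated libraries, and its log2 difference of 0.28 ± 0.27 became -0.13 without it. *Kdm5b* measured 23.8 FPKM against 16.6 and 14, and its difference of 0.39 ± 0.25 became 0.067. *Kdm7a* measured 10.8 FPKM against 6.27 and 5.31, and its difference of -0.14 ± 0.29 became -0.59 with an adjusted p of 0.0382. Of the other genes, *Kdm4a* had a log2 difference of -0.17 ± 0.18 at D4H8, *Kdm4c* 0.32 ± 0.22, *Kdm2a* 0.19 ± 0.17, *Kdm2b* 0.29 ± 0.17 and *Kdm3b* 0.22 ± 0.17.

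At D5, 0 of 10 genes passed in edgeR, where 0.00613% of all genes, a single gene, passed. At an unadjusted p under 0.05 there were 2 of 10, again *Kdm3a* and *Kdm4b*, against 4.7% of all genes, and DESeq2 called 0 of 10, against 0.173% of all genes higher and 0.239% lower. *Kdm3a* measured 24.5, 19.4 and 17.9 FPKM in untreated and 16.0, 10.4 and 11.9 FPKM in treated libraries. The groups did not overlap, as for 5.13% of all genes in that direction. The log2 difference was -0.73 ± 0.21, with an edgeR p of 0.00704 and an adjusted p of 0.906. Over 13 alternatives it ran from -0.96 to -0.56, and only the fit without a filter called it (adjusted p 0.0119). *Kdm4b* measured 27.9, 22.5 and 24.7 FPKM in untreated and 20.1, 16.0 and 20.2 FPKM in treated libraries, without overlap, with a log2 difference of -0.46 ± 0.17 (p 0.0203, adjusted p 0.976). Without D5 replicate 1 the differences were -0.56 for *Kdm3a* and -0.36 for *Kdm4b*, and without D5_GSKJ4 replicate 2 they were -0.58 and -0.34. The log2 differences of the other 8 genes ran from -0.28 (*Kdm7a*) to 0.10 (*Kdm2b*). That of *Kdm7a* was -0.63 without D5_GSKJ4 replicate 1, -0.10 without D5_GSKJ4 replicate 2 and -0.11 without D5 replicate 1, and that of *Kdm5b*, -0.23, was -0.040 without D5 replicate 1.

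At D6, 0 of 10 genes passed in edgeR, where 0% of all genes did, or in DESeq2, where 0% were higher and 0.00326% lower. At an unadjusted p under 0.05 there were 0 of 10, against 1.36% of all genes. The log2 differences ran from -0.12 (*Kdm4b*) to 0.037 (*Kdm4c*), with standard errors from 0.079 to 0.20. *Kdm3a* measured 20.5, 20.8 and 18 FPKM in untreated and 17.0, 16.7 and 22.0 FPKM in treated D6 libraries. *Kdm4b* measured 44.5, 41.5 and 38.9 FPKM in untreated and 42.3, 35.4 and 37.5 FPKM in treated libraries, and both genes' groups overlapped. *Kdm4a* alone did not overlap, at 37.3, 34.9 and 37.4 against 34.5, 33.0 and 33.9 FPKM, as for 2.48% of all genes in that direction, with a log2 difference of -0.12 ± 0.093. Fitting the replicate number as a block called 0 of the 10 at D6, against 0.294% of all genes higher and 1.28% lower.

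**Figure D3:**
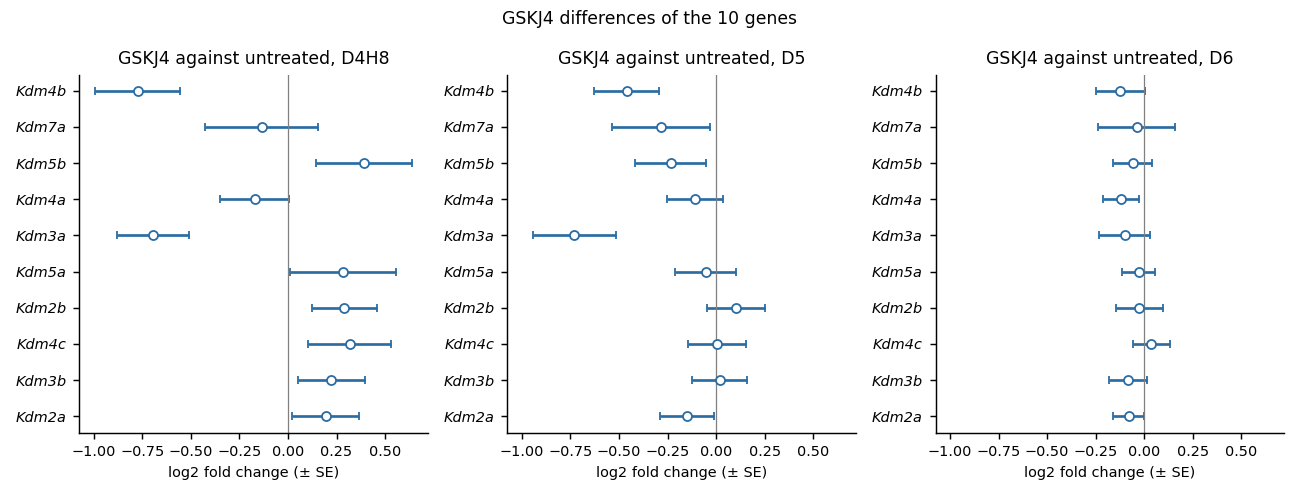
Log2 fold change (horizontal axis, bars ± SE) of GSKJ4-treated against untreated libraries at D4H8, D5 and D6 for the 10 genes. All points are open, since none has an edgeR adjusted p under 0.05. *Kdm3a* lies at -0.69, -0.73 and -0.10 and *Kdm4b* at -0.77, -0.46 and -0.12.

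Whether the GSKJ4 differences themselves differed between stages was tested in a fit over 18 libraries. None of the 10 genes passed for D5 against D4H8, where 0.249% of all genes did, nor for D6 against D4H8, where 0.735% did. At an unadjusted p under 0.05 there was 1 of 10 in each, against 10% and 13.7% of all genes. *Kdm4b* had the smallest p for D6 minus D4H8, with a log2 difference of 0.66 ± 0.27 (p 0.0250, edgeR adjusted p 0.289). *Kdm3a* had a difference of 0.60 ± 0.29 (p 0.0507, adjusted p 0.367). For D5 minus D4H8 the smallest p was that of *Kdm5b*, at -0.64 ± 0.30 (p 0.0472, adjusted p 0.490), which became -0.31 without D4H8_GSKJ4 replicate 2 and -0.42 without D5 replicate 1. A difference of the GSKJ4 response between stages was therefore not shown for any of the 10.

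Ratios between genes of a subfamily within the same library do not depend on library scaling, and are given as a description since these ratios were chosen with the values known. *Kdm3a* stood to *Kdm3b* in a ratio of 2.26, 2.26 and 1.73 in the untreated and 0.918, 1.26 and 1.13 in the treated D4H8 libraries. At D5 the ratios were 2.56, 2.26 and 1.84 untreated and 1.82, 0.943 and 1.28 treated, and at D6 2.21, 2.40 and 1.84 untreated and 1.87, 2.02 and 2.49 treated. The treated libraries lay below the untreated ones at D4H8 and D5 and among them at D6. The *Kdm4b* to *Kdm4a* ratio averaged 0.518 ± 0.0344 (SD, n = 3) untreated and 0.339 ± 0.0634 treated at D4H8, 0.692 ± 0.0133 and 0.541 ± 0.0756 at D5, and 1.14 ± 0.0869 and 1.14 ± 0.0779 at D6. Here too the libraries were separate at D4H8 and D5 and overlapped at D6. The *Kdm5b* to *Kdm5a* ratio at D4H8 was 1.08 ± 0.0758 untreated and 1.19 ± 0.185 treated, with overlapping libraries, although both genes were high in D4H8_GSKJ4 replicate 2. At D5 it was 1.71, 1.51 and 1.52 untreated and 1.43, 1.34 and 1.43 treated, so the treated libraries lay below the untreated ones, and at D6 it was 2.52 ± 0.227 and 2.46 ± 0.119, with overlap.

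**Figure D4:**
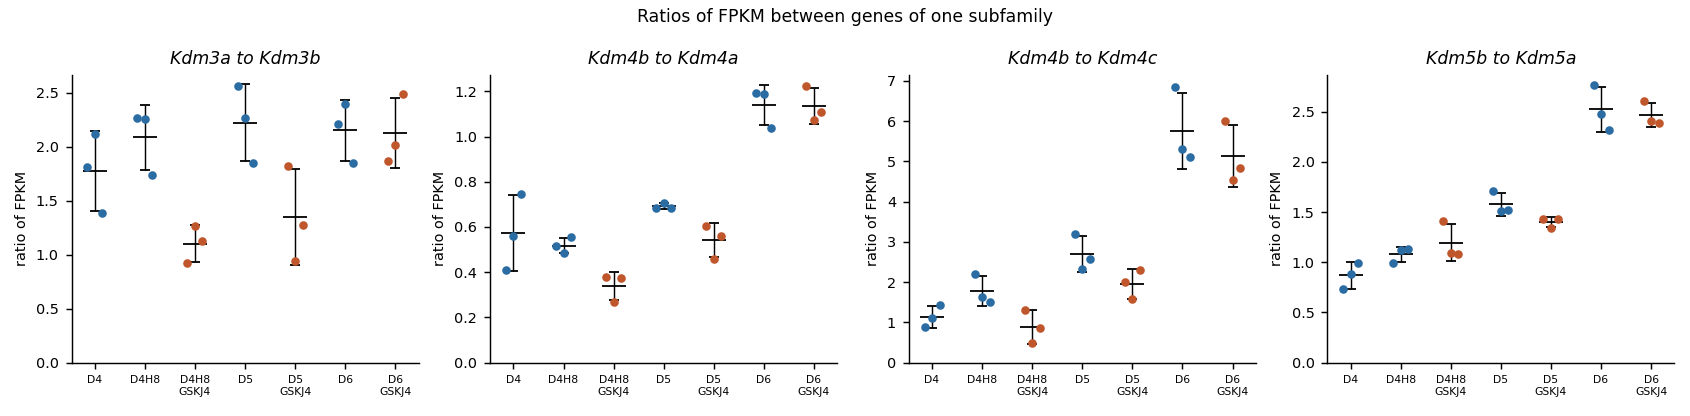
Ratio of FPKM between genes of a subfamily in each of 21 libraries by group (blue untreated, orange GSKJ4, vertical axes start at 0), with mean ± SD of 3 libraries. The *Kdm3a* to *Kdm3b* ratio lies between 1.73 and 2.26 in untreated and between 0.918 and 1.26 in treated D4H8 libraries, and the *Kdm4b* to *Kdm4c* and *Kdm5b* to *Kdm5a* ratios climb with stage.

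*Kdm3a* and *Kdm4b* are known as target genes of HIF, the oxygen-regulated transcription factor whose α subunits are degraded after hydroxylation by the Egln enzymes. A list of 13 other HIF target genes was therefore set beside them. At D4H8, 5 of 13 were lower under GSKJ4 in edgeR, against 1.85% of all genes, 0 were higher, and 12 of 13 had a negative log2 difference (median -0.64). *Bnip3*, a mitophagy receptor, went from 40.7, 54.5 and 61.9 FPKM to 8.72, 10.9 and 19.5 FPKM (log2 fold change -2.05 ± 0.29, adjusted p 0.0136). *Ankrd37* fell by 2.88 ± 0.46 on the log2 scale (adjusted p 0.0194), the glucose transporter gene *Slc2a1* by 1.63 ± 0.29 (adjusted p 0.0246) and the HIF hydroxylase gene *Egln3* by 1.72 ± 0.34 (adjusted p 0.0311). The fifth, the collagen prolyl hydroxylase subunit gene *P4ha1*, fell by 1.09 ± 0.25 (adjusted p 0.0448).

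At D5 edgeR called 0 of the 13, against 0.00613% of all genes, and DESeq2 called 7 as lower, against 0.239%. Of the 13, 12 had a negative log2 difference, with a median of -0.96 against -0.017 over all genes. In CPM 9 did not overlap as lower, against 5.13% of all genes, and 1 as higher, against 6.44%. *Bnip3* went there from 143, 74.8 and 55.0 FPKM to 48.6, 12.2 and 22.1 FPKM, a log2 difference of -1.75 ± 0.51 (adjusted p 0.900). At D6 both tools called 0 of 13, against 0% of all genes in edgeR and 0.00326% lower in DESeq2, and the median was -0.12. The summed level of the 13 genes was 460.2 to 683 FPKM untreated and 191 to 361 FPKM treated at D4H8, 413 to 641 and 245 to 284 FPKM at D5, and 299 to 412 and 247 to 490.0 FPKM at D6. At D4H8, D5 and D6 the log2 differences were -0.69, -0.73 and -0.10 for *Kdm3a* and -0.77, -0.46 and -0.12 for *Kdm4b*. The list medians were -0.64, -0.96 and -0.12. A difference between stages was not shown for either gene. The part of HIF activity in the *Kdm3a* and *Kdm4b* differences was not tested. The list and its comparison were chosen with results of these data known.

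**Figure D5:**
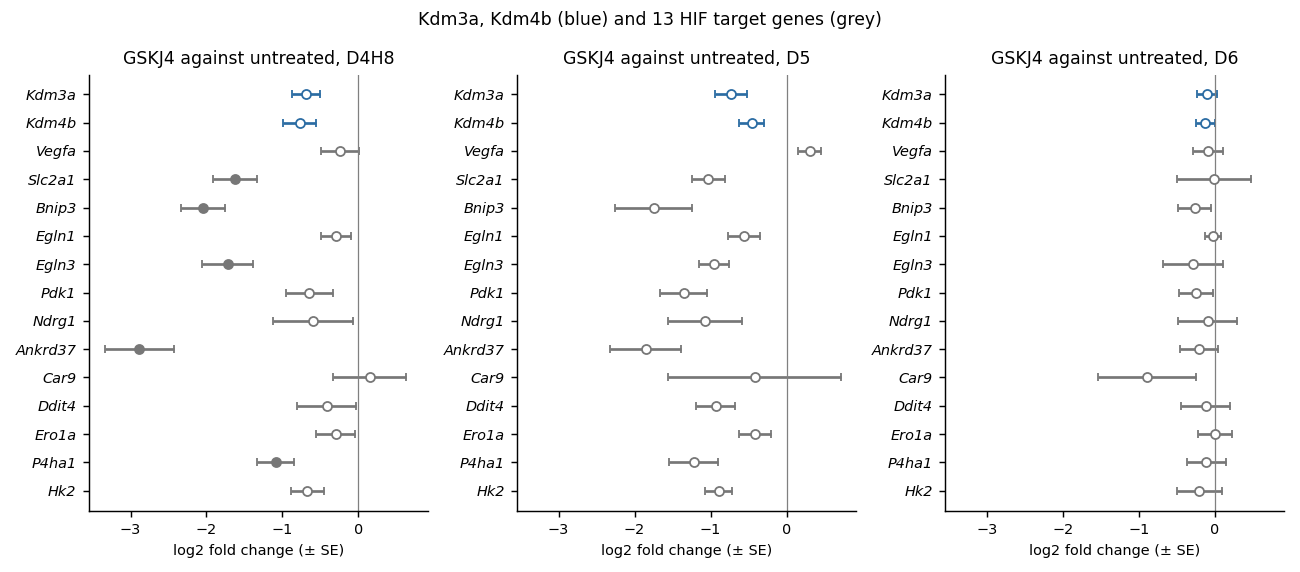
Log2 fold change (horizontal axis, bars ± SE) of GSKJ4-treated against untreated libraries for *Kdm3a* and *Kdm4b* (blue) and 13 HIF target genes (grey) at 3 stages. Filled points have an edgeR adjusted p under 0.05, which holds for 5 genes, all HIF targets at D4H8. At D4H8 and D5 12 of the 13 HIF targets lie left of 0.

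The letters ACGTG and GCGTG, the core of the hypoxia response element, were searched on both strands in the 250 bases before each RefSeq start on GRCm38.p6. Of 32851 promoters 16.6% held ACGTG, 28.2% GCGTG and 38.6% either. Of the 10 genes, 6 had a promoter in the table, and 8 of their 12 promoters held either core, 4 of them before starts of *Kdm2b*. *Kdm4b* had no promoter there. For the HIF target genes 12 of 14 promoters held either core. The promoters of *Kdm3a* and *Kdm7a* are printed 5′ to 3′ on the gene's strand, ending at the base before the start, with matches in capitals, to set *Kdm3a*, whose groups did not overlap at D4H8, beside *Kdm7a*, whose groups overlapped there through D4H8_GSKJ4 replicate 2 alone. The *Kdm3a* sequence is chr6:71632918-71633167 on the minus strand, and it precedes the only 1 of 3 *Kdm3a* starts with a match. The *Kdm7a* sequence is chr6:39206774-39207023 on the minus strand.
Kdm3a: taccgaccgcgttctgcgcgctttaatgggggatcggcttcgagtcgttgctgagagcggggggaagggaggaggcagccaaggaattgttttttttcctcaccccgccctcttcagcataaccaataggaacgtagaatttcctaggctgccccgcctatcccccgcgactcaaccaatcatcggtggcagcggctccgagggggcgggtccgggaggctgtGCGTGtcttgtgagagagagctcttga
Kdm7a: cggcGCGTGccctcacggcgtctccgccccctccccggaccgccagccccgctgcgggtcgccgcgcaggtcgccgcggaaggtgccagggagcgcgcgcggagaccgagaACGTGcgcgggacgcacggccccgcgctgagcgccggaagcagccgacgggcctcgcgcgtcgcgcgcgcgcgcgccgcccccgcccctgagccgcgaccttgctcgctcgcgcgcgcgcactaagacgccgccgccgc
The *Kdm3a* sequence held 1 GCGTG, whose first base lay 27 bases before the start, and no ACGTG. The *Kdm7a* sequence held 1 ACGTG and 1 GCGTG, at 139 and 246 bases before the start. Letters of this kind also stood before *Kdm2b*, *Kdm4c* and *Kdm5b*, which had positive log2 differences at D4H8 that did not pass the test, and not before the single *Kdm4a* start. A match describes the sequence only and does not mark a bound site.

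Other transcripts moved with GSKJ4 in the same libraries. At D4H8, 3 of 8 cycling progenitor markers fell in edgeR (*Olig2*, *Hes5* and *Nkx6-1*), against 1.85% of all genes lower. The summed level of the list was 537 to 598 FPKM untreated and 278 to 393 FPKM treated. Of 8 motor neuron markers 2 fell (*Isl1* and *Chat*), against the same 1.85%, with sums of 214 to 377 FPKM untreated and 88.1 to 219 FPKM treated. None of the fibroblast or pluripotency markers passed in edgeR, with medians of 0.73 and 0.83, sums of 6.60 to 15.3 against 11.4 to 29.4 FPKM, and sums of 60.3 to 251 against 129 to 267 FPKM. With a replicate block, edgeR called 6 of 8 motor neuron markers lower, against 6.39% of all genes. That fit called 4 of 8 pluripotency markers and 1 of 7 tested fibroblast markers higher, against 7.59%. DESeq2 called 4 motor neuron markers lower (5.42% of all genes) and 1 pluripotency marker higher (7.35%). Both called 3 cycling progenitor markers lower. *Kdm4b* also had its highest levels in the D6 cultures, treated and untreated, where the motor neuron marker sums were highest. The part of a change in cell makeup in the lower *Kdm3a* and *Kdm4b* values was not tested.

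Among the 13 further JmjC demethylase genes, edgeR called *Hr* higher under GSKJ4 at D4H8, against 2.11% of all genes. It called none at D5 or D6. At D4H8 a replicate block called 1 higher and 1 lower, against 7.59% and 6.39% of all genes. In CPM 2 did not overlap as higher and 1 as lower, against 18.5% and 14.3%. The lower one was *Phf2*, at 10.5, 8.80 and 8.97 FPKM untreated and 8.39, 3.91 and 5.44 FPKM treated. Of the 8 other JmjC proteins edgeR called 0, and DESeq2 and the block 1 each as lower. *Hr*, which encodes the hairless corepressor, was near the limit of detection at 0.21, 0.27 and 0.32 FPKM untreated and 1.32, 0.54 and 0.82 FPKM treated, a log2 fold change of 1.70 ± 0.38 (edgeR adjusted p 0.0444). *Kdm6b* mRNA overlapped between the groups at D4H8, with 24.2, 23.6 and 26.0 FPKM untreated and 40.2, 23.6 and 24.8 FPKM treated (log2 difference 0.22 ± 0.22, adjusted p 0.545). *Kdm6a*, whose product GSKJ4 also inhibits, had 0.020 ± 0.20 (adjusted p 0.962). No rise of any of the 10 genes under GSKJ4 was called at any stage by edgeR. At D4H8 and D5 the standard errors were 0.14 to 0.29 on the log2 scale, and differences well above them also did not pass. *Kdm4b* at D4H8 had -0.77 (edgeR adjusted p 0.0740) and *Kdm3a* at D5 had -0.73 (edgeR adjusted p 0.906). A rise of that size could therefore have gone uncalled.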

How the data were processed

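RNA-seq of poly-A RNA was measured in 21 libraries, 3 per group, grouped by the sample labels. The authors trimmed reads with Fastp, mapped them with HISAT2 (mm10) and obtained gene counts from HTSeq, and they deposited a table of raw counts and a table of FPKM over 55400 genes. Recomputing FPKM from counts and exonic lengths gave the deposited values to within 0.005. The counting strand is not given in the sources used here. Symbols and positions came from GENCODE M21 on GRCm38, and promoters from RefSeq on GRCm38.p6.

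Counts were tested with edgeR 4.0.16 in R 4.3.3 (quasi-likelihood test, TMM scaling, filterByExpr at a minimum count of 10, Benjamini-Hochberg adjustment, threshold 0.05). The standard error is the log2 fold change divided by the square root of F. Each GSKJ4 comparison was fitted on its own 6 libraries, stage comparisons on the 12 untreated libraries and differences between GSKJ4 effects on 18. Levels are deposited FPKM, and non-overlap was read from CPM computed from the deposited counts. Alternatives were DESeq2 1.42.0, upper-quartile or RLE scaling, a filter of none or of 10 counts per library, blocking on replicate number, a fit over all 21 libraries, and leaving out each library. The scripts were tested on simulated data. Tables and figures used matplotlib 3.10.9, numpy 2.4.6 and pandas 2.3.3 under Python 3.11.15.

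All 10 genes are named in every comparison. Of other lists up to 4 genes with the smallest p among those called under GSKJ4, or else for D6 against D4, are named, and *P4ha1* was added after its value was seen. The genes, lists, tests and alternatives were chosen with earlier results of these data known.

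Replicates are called biological by the labels. No 2 libraries of a group differed by sampling noise alone, with a mean chi-square per gene of 6.44 or more over 21 pairs. Equal replicate numbers were checked for pairing by the correlation of deviations from the group means across genes. All same-numbered pairs were over 0.1 for D6 and D6_GSKJ4 (0.757, 0.431 and 0.574) and for neighbouring untreated stages (0.130 to 0.350), so these numbers were taken to pair the samples. For D4H8 and D4H8_GSKJ4 (0.490, 0.0895 and 0.298) and for D5 and D5_GSKJ4 (0.255, 0.0596 and 0.232), only replicate 2 was under 0.1. Pairing there was neither shown nor excluded. All pairs of D4 and D6 were under 0.1 (0.0447, 0.0231 and 0.0997), although pairing of the neighbouring stages would also pair these groups. Some pairs of unequal number also exceeded 0.1, such as D6 replicate 2 with D6_GSKJ4 replicate 3 (0.245). The main tests fitted no block even where numbers were taken to pair, and blocked fits are among the alternatives.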

Additional observations from a re-analysis of the deposited data

How the results depend on the processing

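With 3 libraries per group and 10 genes, counts near 0 carry the main limit, since a single library can add or remove a call. At D4H8, 0 of 10 genes were called under GSKJ4 in edgeR, but 2 in DESeq2, 2 without a filter on low counts, 2 with a replicate block and 2 in a fit over all 21 libraries, each time *Kdm3a* and *Kdm4b* as lower, where 5.42%, 3.39%, 6.39% and 5.4% of all genes were lower. Leaving out a library gave 0 to 2, with 2 reached without D4H8_GSKJ4 replicate 2, where 748 of 16694 genes were lower and 998 higher. At D5 the fit without a filter called 1 gene, *Kdm3a* as lower, where 79 of 30271 genes were lower and 49 higher. For D4H8 against D4, where 1 gene was called, the fit without a filter called 3, where 1055 of 34033 genes were higher and 264 lower. Leaving out a library gave 0 to 2 there. It was 2 without D4 replicate 3 (627 of 18038 genes higher, 96 lower) and 0 without D4H8 replicate 1 (341 of 18053 higher, 9 lower). The other counts stayed within 1.5 times the reported ones. The cause of these shifts was not tested.

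At D4H8 and D5, where equal numbers were not shown to pair the samples, the replicate block gave *Kdm3a* an adjusted p of 0.0324 at D4H8 and 0.248 at D5, and *Kdm4b* 0.0183 and 0.507. In the stage comparisons, the block added *Kdm4a* for D5 against D4H8 and changed no other call.

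Of 1290 refitted log2 values, 1196 kept their direction and side of the threshold, 20 newly passed, 26 no longer passed and 48 changed sign. None of the 48 was called in the reported fit. Outside leave-one-out these were *Kdm4c* under GSKJ4 at D5 (-0.00563 without a filter, -0.000654 over all 21 libraries) and, with upper-quartile scaling, *Kdm5a* for D5 against D4H8 (-0.00614) and *Kdm3a* for D6 against D5 (-0.031). Leaving out a library gave ranges that cross 0 for GSKJ4 at D4H8 (*Kdm5a* -0.13 to 0.46, *Kdm7a* -0.59 to 0.086), at D5 (*Kdm3b* -0.061 to 0.0605, *Kdm4a* -0.20 to 0.00433, *Kdm4c* -0.054 to 0.082, *Kdm5a* -0.14 to 0.068) and at D6 (*Kdm2b* -0.10 to 0.086, *Kdm4c* -0.011 to 0.078, *Kdm5a* -0.066 to 0.00986, *Kdm7a* -0.19 to 0.13). The same held for D4H8 against D4 (*Kdm2b* -0.098 to 0.13, *Kdm3b* -0.022 to 0.23), D5 against D4H8 (*Kdm5a* -0.089 to 0.063) and D6 against D5 (*Kdm3a* -0.069 to 0.22). It also held for the GSKJ4 difference at D5 minus D4H8 (*Kdm3a* -0.30 to 0.15, *Kdm4a* -0.073 to 0.19, *Kdm5a* -0.53 to 0.074, *Kdm7a* -0.52 to 0.30) and D6 minus D4H8 (*Kdm4a* -0.0603 to 0.18, *Kdm5a* -0.49 to 0.12, *Kdm7a* -0.14 to 0.56).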

Other observations

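Of 17 genes for enzymes that methylate H3K4, H3K9 or H3K36, 12 passed in edgeR for D6 against D4, against 63.9% of all genes. From D4 to D6, 4 of 6 H3K4 methyltransferase genes rose in edgeR, among them *Kmt2c* by 1.35 ± 0.16 on the log2 scale (adjusted p 4.09e-06) and *Setd1b* by 1.05 ± 0.15 (adjusted p 2.42e-05), and 0 fell. Of 6 H3K9 methyltransferase genes 3 fell and 1 rose. *Suv39h2* fell by 1.52 ± 0.12 (adjusted p 1.38e-07) and *Suv39h1* by 1.02 ± 0.13 (adjusted p 1.15e-05), which both encode enzymes of constitutive heterochromatin, while *Ehmt2*, the G9a gene, rose by 0.45 ± 0.14 (adjusted p 0.0126). Of 5 H3K36 methyltransferase genes 3 rose and 1 fell, with *Nsd3* rising by 0.95 ± 0.13 (adjusted p 2.48e-05). For comparison, 32.9% of all genes were higher and 31% lower. *Kdm1a*, an FAD-dependent H3K4 demethylase, rose by 0.48 ± 0.15 (adjusted p 0.0139), and *Kdm1b* had 0.28 ± 0.12 (adjusted p 0.0527).

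Of 9 subunit genes of PRC1.1, the complex of *Kdm2b*, 2 rose and 2 fell from D4 to D6, against 32.9% and 31% of all genes. *Bcorl1* rose by 1.40 ± 0.15 (edgeR adjusted p 2.64e-06) and *Bcor* by 1.04 ± 0.13 (adjusted p 1.1e-05), and *Ring1* fell by 0.73 ± 0.15 (adjusted p 0.000664) and *Usp7* by 0.42 ± 0.12 (adjusted p 0.00921). Under GSKJ4 edgeR called 0 genes of these methyltransferase, FAD-dependent demethylase and PRC1.1 lists at D4H8, D5 or D6.

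Over the 21 libraries, which share stages and treatments, the gene with the log2 CPM pattern most like that of *Kdm4b* was *4931428F04Rik* (Pearson's r 0.984 among 18349 genes), followed by *Gpc1* (0.983). *Wdr37* (0.972) and *Pank3* (0.965) were nearest to *Kdm7a*, and *Snx29* (0.948) and *Ap2b1* (0.946) to *Kdm5b*. These are descriptions of similar profiles.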
